A study of Mus musculus with 22 samples.

Results

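The genes described are 10 of the major histocompatibility complex (MHC) and antigen presentation system, taken by symbol out of 55385 genes in the transcript index: H2-K1, H2-D1, B2m, H2-Aa, H2-Ab1, Cd74, Ciita, Tap1, Tap2 and Nlrc5. All 10 were found. For each gene the TPM (a read level corrected for transcript length and library size) and the estimated counts were summed over its transcripts and followed across 6 cell types of the mouse brain, with 3 replicates each. The libraries were made from mRNA on ribosomes that carried hemagglutinin-tagged RPL22, which Cre recombinase switches on in chosen cells (RiboTag), so the values describe ribosome-bound mRNA rather than protein at the cell surface.

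Every mouse was 6 weeks old and carried Rpl22 Fl/+, and the groups differed by Cre driver and by the tissue taken. Rbp4-Cre was used for dentate gyrus granule cells, from hippocampus, and for layer V neurons, from cortex. Gabra6-Cre marked granule cells in the cerebellum, and Dlx6a-Cre marked inhibitory interneurons in the hippocampus, where each interneuron library pooled 2 mice. Cortex was used for astrocytes, labelled Aldh1-cre and described in the methods as an Aldh1l1 driver, and for microglia, with Tmem119-cre. Only these glial drivers were tamoxifen-inducible, so tamoxifen treatment and glial identity cannot be told apart. All microglia and interneuron libraries were labelled batch 2, and 4 replicates of the other cell types had a library in both batches. The main fit used 18 libraries, 1 for each replicate, with 38270477 to 71440915 estimated counts each.

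The labels were set against marker genes. The 5 microglia markers used (Tmem119, P2ry12, Csf1r, Cx3cr1 and C1qa) summed to 15240 to 16149 TPM in the microglia libraries and to at most 53.9 TPM in any other library, and Aqp4, a water channel of astrocytes, was at 416 ± 39.6 TPM (SD, n = 3) in astrocytes and at most 7.99 TPM elsewhere. Gabra6, the driver gene of the cerebellar line, was at 3895 ± 23.2 TPM in cerebellar granule cells and at most 0.19 TPM in the mean of each other cell type. The levels of the layer V markers Rbp4, Bcl11b and Fezf2 are given as a sum, which can hide differences in single genes. Each of them differed among the 4 neuron types (edgeR F test, adjusted p of 3.1e-13 or less), as did 88.3% of all genes tested. The F test does not say in which type a gene was highest. The sum of these markers did not mark out layer V neurons (170 to 173 TPM) from dentate granule cells (197 to 218 TPM), which share the Rbp4 driver. Dentate granule markers summed to 751 to 851 TPM in dentate granule cells and to at most 185 TPM elsewhere. The libraries also held mRNA of other cells. Endothelial markers summed to 187 to 287 TPM in microglia against 34.96 to 49.7 TPM in astrocytes and 3.21 to 31.1 TPM in neurons, and oligodendrocyte markers were highest in interneurons, at 2612 to 2795 TPM. In bulk libraries like these, fewer cells of a type and less mRNA per cell cannot be told apart.

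MHC class I molecules present peptides from inside the cell to cytotoxic T cells. Their heavy chains, encoded by H2-K1 and H2-D1, fold with the shared light chain beta-2 microglobulin (B2m), and the transporter formed by TAP1 and TAP2 carries peptides into the endoplasmic reticulum to load them. MHC class II molecules, pairs of an alpha and a beta chain such as those of H2-Aa and H2-Ab1, present ingested antigen to helper T cells, and the invariant chain CD74 guides them through the cell. NLRC5 and CIITA are related transactivators, of class I and class II genes respectively, and both sets of genes respond to interferon gamma. In the healthy brain, microglia are the parenchymal cells best known for this machinery, while neurons are known for low levels of it.

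On GRCm38, 6 of the 10 genes lay in the MHC on chromosome 17: H2-K1 (chr17:33996017-34000347, minus strand), Tap1 (chr17:34187553-34197225, plus), Tap2 (chr17:34203527-34216321, plus), H2-Ab1 (chr17:34257689-34269419, plus), H2-Aa (chr17:34282744-34287823, minus) and H2-D1 (chr17:35262730-35267499, plus). B2m lay at chr2:122147686-122153083 (plus), Nlrc5 at chr8:94434356-94527272 (plus) and Ciita at chr16:10480059-10528418 (plus), and Cd74 lay outside the MHC as well. Coordinates are those of GENCODE M21, in which 9 of the 10 gene IDs had the same version as in the files, H2-D1 being the exception. RefSeq promoter windows of 300 bases on GRCm38.p6 were at hand for 5 of the 10 genes, namely H2-K1, H2-D1, B2m, H2-Aa and Tap1. The stretch from 180 bases before to 30 bases after the RefSeq start is shown for 4 of them, because the class I heavy chains parted from each other and from B2m across cell types, and H2-Aa stands for class II. The starts are those of RefSeq, and for H2-D1 that start lay 364 bases downstream of the GENCODE start, so that its stretch falls inside the GENCODE gene. Capitals mark matches, on either strand, to the core of the interferon-stimulated response element, TTCNNNGAA (STAT site), CCAAT (Y box), TGACG (CRE core) and a palindromic kappa B site, so that ATTGG and CGTCA are reverse forms. The capitals furthest from the start are the kappa B site in H2-K1 and H2-D1 and the response element core in B2m.
H2-K1, chr17:34000318-34000527, minus strand: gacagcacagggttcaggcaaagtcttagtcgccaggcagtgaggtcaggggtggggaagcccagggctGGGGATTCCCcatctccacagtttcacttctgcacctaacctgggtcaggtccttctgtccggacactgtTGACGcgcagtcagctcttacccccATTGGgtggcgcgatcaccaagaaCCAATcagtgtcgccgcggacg
H2-D1, chr17:35262914-35263123, plus strand: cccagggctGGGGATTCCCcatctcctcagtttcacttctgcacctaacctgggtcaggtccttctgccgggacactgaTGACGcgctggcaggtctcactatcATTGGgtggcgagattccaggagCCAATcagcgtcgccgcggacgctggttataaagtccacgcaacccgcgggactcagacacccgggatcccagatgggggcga
B2m, chr2:122147507-122147716, plus strand: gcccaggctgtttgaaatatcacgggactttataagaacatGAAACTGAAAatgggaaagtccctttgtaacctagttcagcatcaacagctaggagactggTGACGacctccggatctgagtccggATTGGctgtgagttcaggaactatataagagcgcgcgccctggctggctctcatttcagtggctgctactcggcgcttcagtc
H2-Aa, chr17:34287794-34288003, minus strand: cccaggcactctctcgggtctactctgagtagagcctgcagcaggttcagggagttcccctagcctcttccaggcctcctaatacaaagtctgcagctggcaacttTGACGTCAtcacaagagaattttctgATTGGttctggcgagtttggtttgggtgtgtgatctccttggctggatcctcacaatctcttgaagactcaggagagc

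Within the 300-base windows, the exact kappa B string was found in H2-K1 and H2-D1 and in 0.107% of all 32851 windows. The exact response element string was found in B2m and in 3.44% of all windows. A window without an exact match can still hold a variant of the element. CCAAT and TGACG were found in 5 of 5 windows of these genes, but they were also in 37.4% and 20.8% of all windows. In H2-Aa, TGACG and its reverse form overlap. No TTCNNNGAA lay in the 5 windows, against 8.30% of all windows. The H2-K1 and H2-D1 windows matched at 176 of 240 bases when aligned without gaps, and in both the kappa B match began 70 bases before the CRE core and the CRE core 25 bases before the first Y box.

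**Figure D1:**
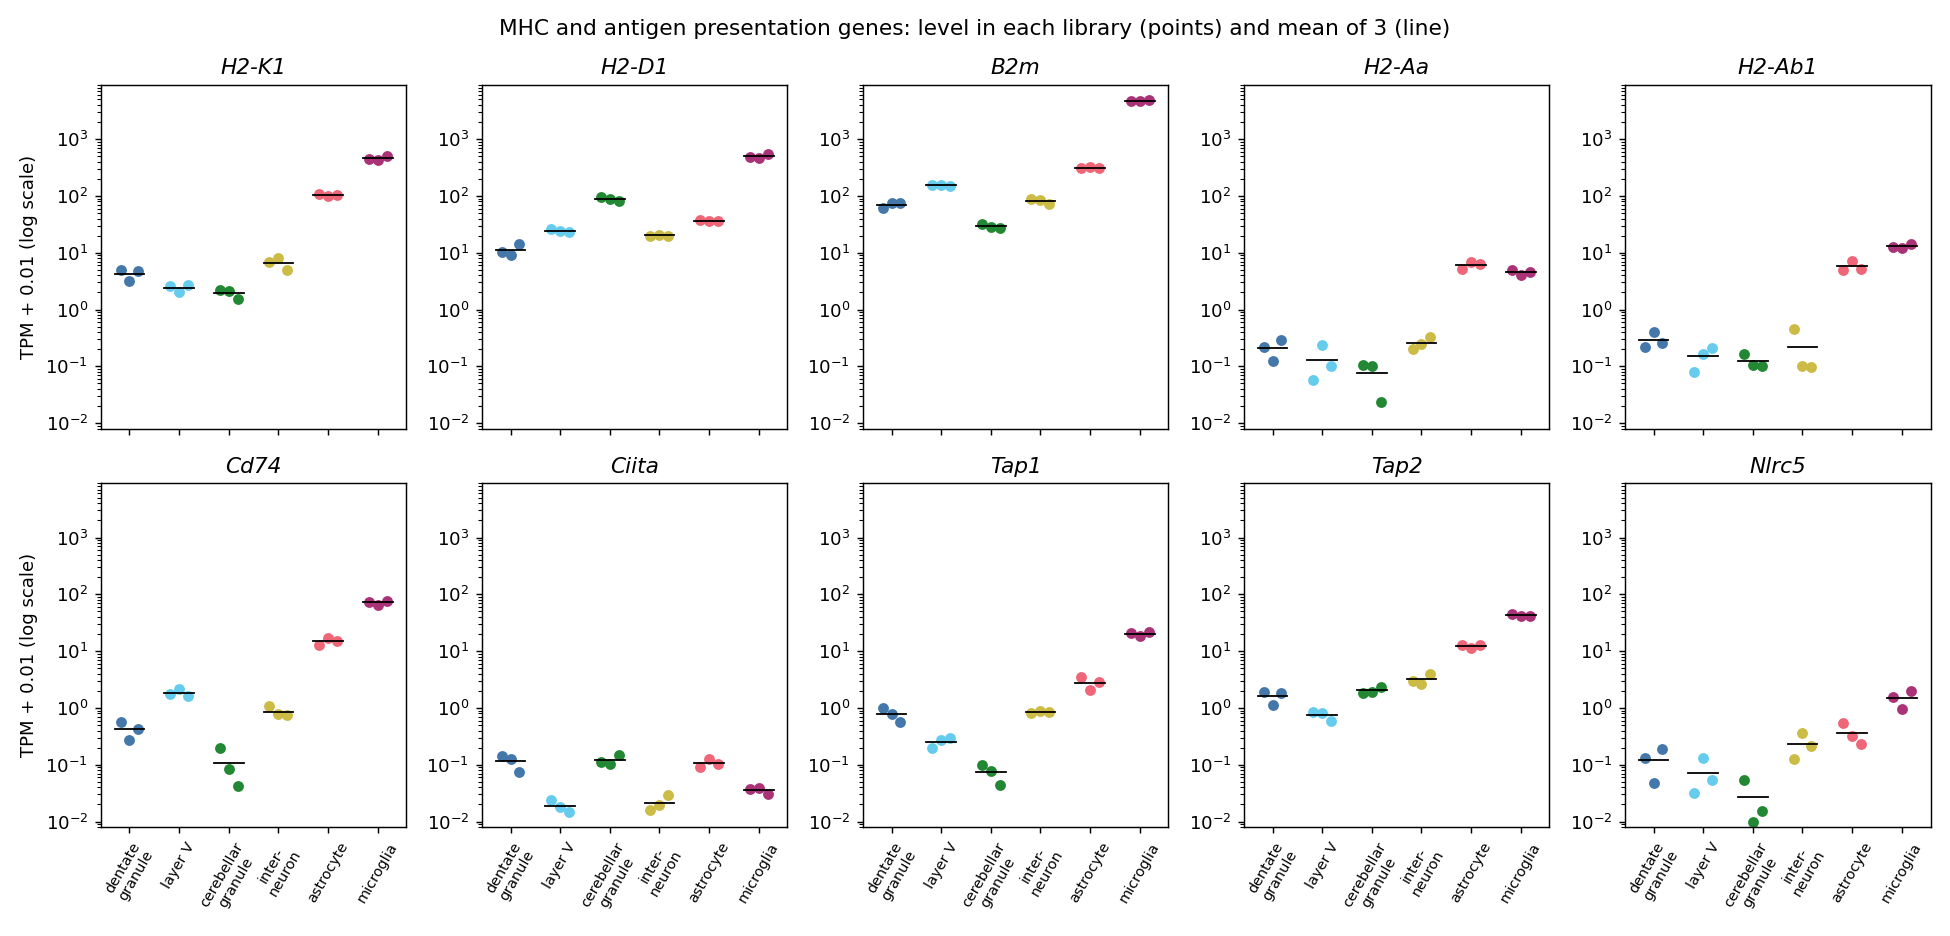
Level of each of the 10 genes in each library (points) and the mean of 3 replicates (black line), in TPM with 0.01 added on a log scale, for the 6 cell types. Microglia libraries sit above all other libraries for 8 of the 10 genes, cerebellar granule cells stand out for H2-D1, and Ciita stays below 0.15 TPM in every library.

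The first comparison asked how far microglia stood above the other cell types. Microglia had higher levels than the mean of the other 5 cell types for 9 of the 10 genes (edgeR quasi-likelihood test, Benjamini-Hochberg adjusted p at most 0.05), where 43.4% of all 20524 genes tested were called in that direction. Every microglia library lay above every other library, in CPM (estimated counts scaled to library size), for 8 of the 10 genes, against 20.9% of all genes. None was lower, against 37.6% of all genes. All 10 genes passed the filter on low counts, which the libraries of a single cell type were enough to meet. H2-Aa and H2-Ab1, with at most 7 and 8 estimated counts in any neuronal library, passed it only through the glia in which they were then called higher. The median log2 fold change of the 10 genes was 4.92, beside 0.09 over all genes tested.

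B2m was the most abundant of the 10 transcripts in microglia, at 4614, 4733 and 4950 TPM in the 3 replicates. It lay at 315, 318 and 309 TPM in astrocytes and between 27.7 and 155 TPM in the 12 neuronal libraries, so no groups of glia and neurons overlapped. The fitted difference between microglia and the mean of the others was 5.76 ± 0.05 on the log2 scale (SE, edgeR adjusted p = 1.1e-23). H2-K1 was at 445, 421 and 511 TPM in microglia, at 110, 101 and 103 TPM in astrocytes and between 1.51 and 8.19 TPM in neurons, a log2 fold change of 6.33 ± 0.08 in microglia (adjusted p = 3.4e-21). H2-D1 was at 493, 458 and 547 TPM in microglia and between 9.03 and 94.6 TPM in the other libraries, with a log2 fold change of 4.28 ± 0.06 (adjusted p = 1.4e-20). The 2 heavy chains were thus about equal in microglia, with 1.09 ± 0.02 times as much H2-D1 as H2-K1 by TPM (SD, n = 3).

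The transporter subunits and the class I transactivator followed. Tap1 was at 20.5, 18.2 and 21.8 TPM in microglia, at 3.48, 2.07 and 2.83 TPM in astrocytes and between 0.03 and 0.98 TPM in neurons, a log2 fold change of 5.44 ± 0.10 in microglia (adjusted p = 4.3e-19). Tap2 was at 45.3, 41.1 and 41.4 TPM in microglia, at 12.9, 11.4 and 12.7 TPM in astrocytes and between 0.59 and 3.88 TPM in neurons, a log2 fold change of 4.31 ± 0.07 (adjusted p = 1.5e-19). Both subunits separated the 3 classes of microglia, astrocytes and neurons without overlap. Most of the Tap2 level, however, lay in a transcript of 2561 bases annotated as a retained intron, which carried 72.5% of the gene's TPM in microglia and 71.3% in astrocytes. Nlrc5 was low throughout, at 1.56, 0.95 and 2.01 TPM in microglia, 0.54, 0.31 and 0.22 TPM in astrocytes and at most 0.35 TPM in neurons, with a log2 fold change of 4.40 ± 0.24 in microglia (adjusted p = 6.3e-12).

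Of the class II genes, Cd74 had the highest level and the largest difference. It was at 72.8, 65.98 and 77.6 TPM in microglia, at 12.8, 16.7 and 14.9 TPM in astrocytes and between 0.03 and 2.14 TPM in neurons, a log2 fold change of 6.39 ± 0.11 in microglia (adjusted p = 2.1e-19). H2-Ab1 was at 12.6, 11.9 and 14.2 TPM in microglia, at 4.93, 7.02 and 5.20 TPM in astrocytes and at most 0.44 TPM in neurons, a log2 fold change of 5.86 ± 0.17 (adjusted p = 3.9e-16). Levels in neurons were thus close to the limit of detection, with at most 8 estimated counts for H2-Ab1 in any neuronal library. H2-Aa broke this order. It was at 4.92, 4.03 and 4.66 TPM in microglia and at 5.09, 6.89 and 6.45 TPM in astrocytes, so that each astrocyte library lay above each microglia library. The difference was 0.51 ± 0.20 on the log2 scale in favor of astrocytes (adjusted p = 0.032, where 39.8% of all genes were called higher in astrocytes than in microglia), but it passed 0.05 in only 6 of the 10 other settings that tested it and in 8 of the 18 fits that left out 1 library. The adjusted p ran from 0.0038 to 0.16 over these settings. It was lost without any 1 of the 3 microglia or 3 cerebellar granule libraries, astrocyte replicate 2 or 3, dentate granule replicate 1 or layer V replicate 3 (log2 differences of 0.37 to 0.55).

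Within the class II pair, the ratio of H2-Ab1 to H2-Aa by TPM was 2.85 ± 0.25 in microglia and 0.93 ± 0.11 in astrocytes (SD, n = 3), with no overlap between the 3 libraries of each. H2-Eb1, the beta chain of the second class II molecule, which was named after its values were seen, resembled H2-Aa, at 6.08 ± 0.99 TPM in astrocytes and 4.55 ± 0.58 TPM in microglia, a log2 difference of 0.55 in favor of astrocytes (adjusted p = 0.041), which was not tested in other settings. Ciita, the class II transactivator, was low in every library. It had 5 to 7 estimated counts in the microglia libraries (0.02 to 0.03 TPM), 16 to 31 in astrocytes (0.08 to 0.12 TPM), 10 to 23 in cerebellar granule cells, 7 to 13 in dentate granule cells and 1 to 3 in layer V neurons and interneurons. Its log2 fold change in microglia was -0.39 ± 0.39 (adjusted p = 0.36).

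Because microglia and interneuron libraries all belonged to batch 2, the fit was repeated within that batch. The other cell types had no replicates there, and the layer V library was the one with the conflicting sex label given below, so only effect sizes are listed. Within batch 2 the log2 fold change in microglia was 6.25 for H2-K1, 5.72 for B2m, 6.70 for Cd74 and 4.00 for H2-Aa.

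The second comparison set astrocytes against the 4 neuron types. All 10 genes were higher in astrocytes than in the mean of the 4 neuron types, where 43.0% of all genes tested were called higher and 34.1% lower. Every astrocyte library lay above every neuronal library in CPM for 8 of the 10 genes, against 22.1% of all genes. The exceptions were H2-D1 and Ciita, and in TPM the astrocyte and interneuron libraries of Nlrc5 overlapped too. The class II genes and H2-K1 had the largest differences, with log2 fold changes of 5.95 ± 0.20 for H2-Ab1, 5.88 ± 0.19 for H2-Aa, 5.46 ± 0.09 for H2-K1 and 5.24 ± 0.13 for Cd74. Those of Tap1 (3.31 ± 0.12), Tap2 (3.27 ± 0.08), B2m (2.39 ± 0.05), Nlrc5 (2.33 ± 0.33) and Ciita (1.91 ± 0.30) were smaller, and that of H2-D1 was 0.72 ± 0.07 (adjusted p = 4.9e-08). The call for Ciita rested on 16 to 31 estimated counts in each astrocyte library and was lost by limma on log2(TPM + 1) (adjusted p = 0.091). Layer V and interneuron libraries held 1 to 3 estimated counts of Ciita. Cerebellar granule cells did not differ from astrocytes in it (edgeR log2 difference -0.10 ± 0.35, adjusted p = 0.79). H2-D1 was lower in astrocytes than in cerebellar granule cells, as given below.

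Class I transcripts stood in other proportions in astrocytes. Their H2-D1 to H2-K1 ratio was 0.35 ± 0.01 by TPM, the only value below 1 among the 6 cell types, and their ratio of B2m to the sum of both heavy chains was 2.23 ± 0.10, against 4.99 ± 0.36 in microglia. B2m reached 6.59% of its microglial level in astrocytes and H2-D1 reached 7.32%, while H2-K1 reached 22.8%, Tap2 29.0%, Cd74 20.5%, H2-Ab1 44.4% and H2-Aa 135%.

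**Figure D2:**
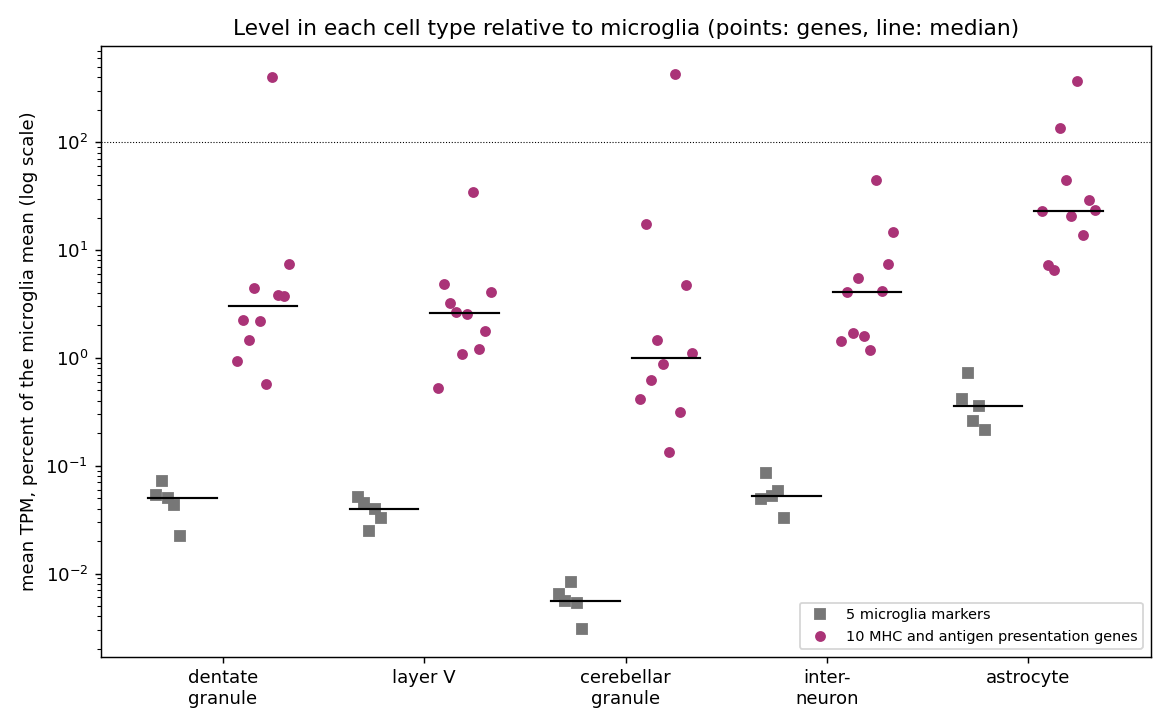
Mean TPM in each of the 5 other cell types as a percent of the microglia mean (log scale), for the 10 MHC and antigen presentation genes (circles) and for 5 microglia markers (squares), with the median of each set as a line. In astrocytes the 10 genes range from 6.59% to 372% (Ciita, with 5 to 7 estimated counts in each microglia library) of the microglial level and the microglia markers from 0.22% to 0.72%.

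RiboTag immunoprecipitates can carry mRNA of untagged cells, so the members were set beside microglia markers. Tmem119, P2ry12, Csf1r, Cx3cr1 and C1qa were each at 0.22% to 0.72% of their microglial level in the astrocyte libraries. Each of the 10 genes lay above that range in astrocytes, the lowest being B2m at 6.59%. In neurons these 5 markers were at 0.0031% to 0.086% of their microglial level, and the median of the 10 genes was 3.01% in dentate granule cells, 2.60% in layer V neurons, 0.99% in cerebellar granule cells and 4.10% in interneurons. The lowest of the 10 genes in any neuron type was Cd74 in cerebellar granule cells, at 0.13% of its microglial level, on 1 to 3 estimated counts per library. There the 5 markers were at 0.0031% to 0.0083%. The percents rest on unlike denominators. In microglia the markers were at 1130 to 7474 TPM, while the members ran from 0.03 TPM (Ciita), 1.51 TPM (Nlrc5) and 4.53 TPM (H2-Aa) to 4766 TPM (B2m). For members so low in microglia, a few counts elsewhere make a large percent.

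Markers of other cells, some of which present antigen, also moved with the glial libraries. All 6 endothelial markers were higher in astrocytes than in neurons, and Cldn5, a tight junction protein of endothelium, was at 16.9 ± 3.43 TPM in astrocytes and 65.2 ± 18.9 TPM in microglia. The 4 B cell markers summed to 1.57 to 1.86 TPM in astrocytes, 28.6 to 34.6 TPM in microglia and at most 0.16 TPM in neurons, with most of the microglial sum from Cd79b (29.2 ± 2.89 TPM) and with Cd79a, also a subunit of the B cell receptor, at 1.13 ± 0.26 TPM in astrocytes and 1.91 ± 0.08 TPM in microglia. All 4 pericyte markers were higher in both glial comparisons, with sums of 48.5 to 52.6 TPM in astrocytes, 69.7 to 79.6 TPM in microglia and 0.97 to 17.6 TPM in neurons. Border macrophage markers summed to 2.76 to 4.16 TPM in astrocytes and 7.93 to 11.8 TPM in microglia, with Mrc1 at 0.55 ± 0.14 and 7.41 ± 1.25 TPM. Of the dendritic cell markers, 1 of 3 tested was higher and 2 were lower in microglia. Their sum was highest in cerebellar granule cells, at 31.9 to 35.7 TPM, and Flt3 was lowest in astrocytes, at 0.92 ± 0.14 TPM. The 5 T cell markers summed to at most 3.22 TPM in any library, and Cd3e was at most 0.21 TPM. The part of these cells in the levels of the class II genes was not tested.

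The third comparison was among the 4 neuron types. All 10 genes differed among them by the F test, but so did 88.3% of all genes tested, and leaving out 1 library brought the count to 9 in some fits. Among the 10 were H2-Aa and H2-Ab1, which had passed the filter only through glia and had at most 7 and 8 estimated counts in any neuronal library. The clearest differences were those of H2-D1 and B2m, which had at least 324 and 312 estimated counts in every neuronal library. H2-D1 was at 94.6, 87.7 and 81.4 TPM in cerebellar granule cells, against 25.7, 23.8 and 23.2 TPM in layer V neurons. Interneurons had 19.9, 20.8 and 20.0 TPM of it, and dentate granule cells 10.4, 9.03 and 13.98 TPM. No groups overlapped. Cerebellar granule cells were above layer V neurons by 1.68 ± 0.10, above interneurons by 2.24 ± 0.10 and above dentate granule cells by 3.02 ± 0.10 on the log2 scale (adjusted p = 2.4e-11, 7e-13 and 2e-14). They were also above astrocytes, by 1.01 ± 0.09 (adjusted p = 1.6e-08, where 35.1% of all genes were called in that direction), and this held in all 11 other settings tested and in all 18 fits that left out 1 library.

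B2m ran the other way. It was lowest in cerebellar granule cells, at 32.2, 28.5 and 27.7 TPM, and highest in layer V neurons, at 155, 153 and 150 TPM, a log2 difference of 2.57 ± 0.08 (adjusted p = 9.5e-15). Dentate granule cells, at 61.4, 74.2 and 74.4 TPM, and interneurons, at 86.7, 85.1 and 71.8 TPM, overlapped and did not pass the test (log2 difference 0.12 ± 0.08, adjusted p = 0.19). As a result, cerebellar granule cells had 0.33 ± 0.01 times as much B2m as heavy chain mRNA by TPM, while the other 5 cell types had 2.23 to 5.73 times as much. Their ratio of H2-D1 to H2-K1 was 46.5 ± 6.47, while that of layer V neurons was 10.1 ± 1.57, and dentate granule cells (2.63 ± 0.46) and interneurons (3.18 ± 0.82) overlapped.

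**Figure D3:**
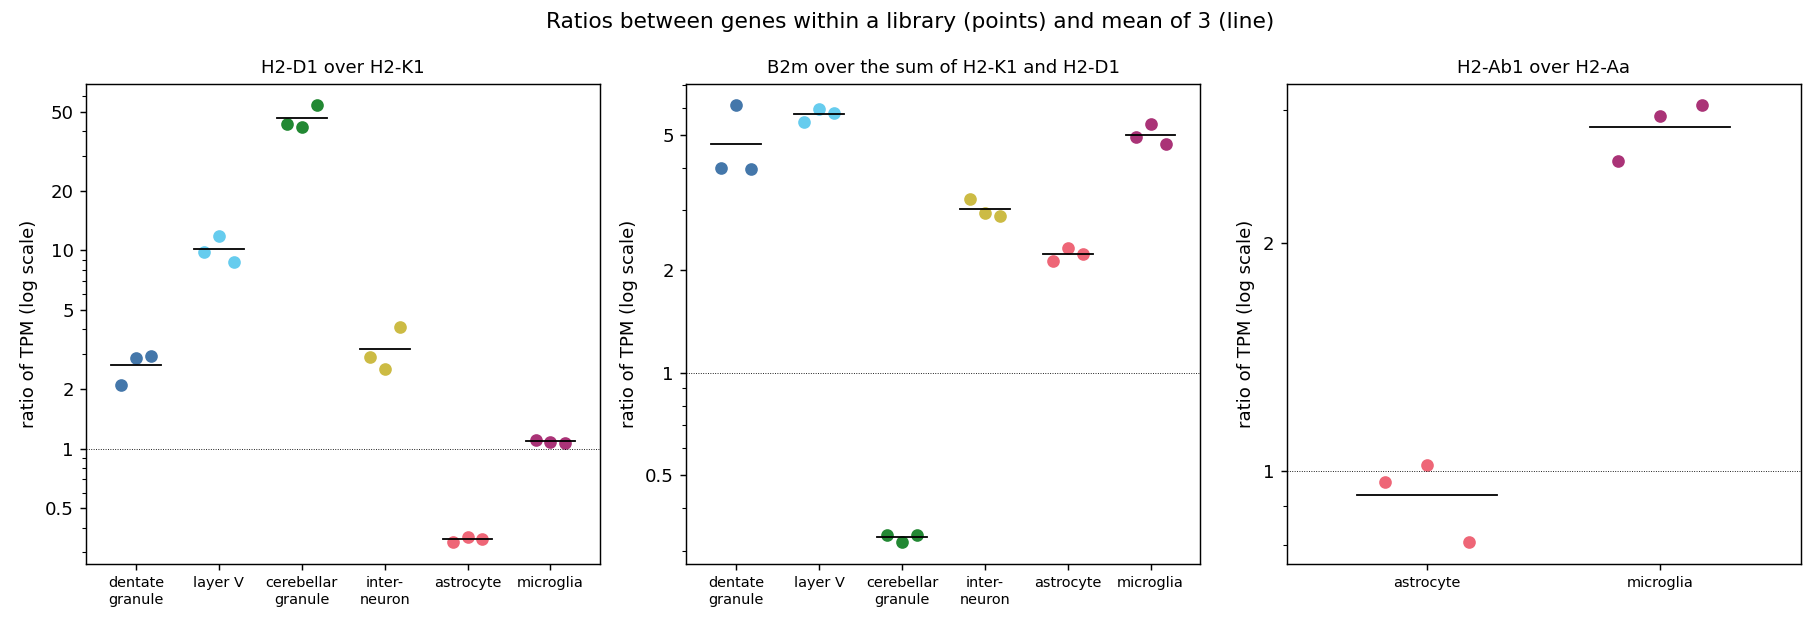
Ratios of TPM between genes within each library (points) and their mean (black line), on log scales, for H2-D1 over H2-K1, B2m over the sum of H2-K1 and H2-D1, and H2-Ab1 over H2-Aa (glia only, since the class II genes were near 0 in neurons). Cerebellar granule cells hold the highest H2-D1 to H2-K1 ratio, 46.5 ± 6.47, and the lowest B2m ratio, 0.33 ± 0.01.

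H2-K1 was near the low end in all neurons. Interneurons had 6.84, 8.19 and 4.86 TPM, dentate granule cells 4.96, 3.15 and 4.77 TPM, layer V neurons 2.61, 2.01 and 2.67 TPM and cerebellar granule cells 2.17, 2.09 and 1.51 TPM. The ranges of neighbors overlapped at the top and at the bottom of this order, with adjusted p of 0.049 and 0.029. The mean share of H2-K1 in protein-coding transcripts was 40.6% to 64.5% in the neuron types, against 80.8% in astrocytes and 73.1% in microglia. Part of the neuronal level was thus assigned to transcripts annotated as non-coding, such as a retained intron form of 457 bases. The share of that form varied between libraries, from 0% to 41.7% in interneurons and from 20.0% to 65.7% in cerebellar granule cells. Neuronal libraries held 31 to 216 estimated counts of H2-K1, so the split is poorly resolved. H2-D1, in contrast, lay at least 99.3% in its protein-coding transcripts in every cell type, and the one of 2102 bases held 68.0% of it in cerebellar granule cells and 70.1% in microglia.

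Both heavy chains share sequence with other genes. Of the distinct 31-base words in the annotated transcripts, 22.8% of those of H2-K1 and 26.9% of those of H2-D1 also occurred in transcripts of other genes, and each shared more with the other (11.1% and 13.8%) than with any further gene. B2m shared none, so its level did not depend on how reads were split between genes. Tap2 shared 14.3%, mostly with the overlapping antisense gene Gm15821, and the remaining members shared at most 4.09%. The libraries were made with a stranded kit, but whether strand was used in the quantification was not given in the sources used here. The reads were matched to reference transcripts only, and MHC genes are among the most polymorphic of the mouse genome. A strain difference between the Cre lines, some of which carried FVB ancestry by name, would therefore enter these values. Its part was not tested.

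The remaining members were low in neurons. Cd74 was highest in layer V neurons, at 1.74, 2.14 and 1.61 TPM, followed by interneurons, dentate granule cells and cerebellar granule cells, and each neighbor in this order differed from the next (adjusted p of 0.0069 or less). The low end of this order rested on few reads, with 6 to 17 estimated counts in each dentate granule library and 1 to 3 in each cerebellar granule library. The transcript differed too: the protein-coding form of 1410 bases held 77.8% of Cd74 in layer V neurons and 22.4% in microglia. Tap1 was lowest in cerebellar granule cells, at 0.09, 0.07 and 0.03 TPM, and Tap2 in layer V neurons, at 0.85, 0.82 and 0.59 TPM, and for Tap2 too each neuronal neighbor differed from the next (adjusted p of 0.045 or less). The Tap2 ranges of cerebellar and dentate granule cells overlapped in TPM, however. The retained intron form held 57.4% (cerebellar granule cells) to 72.9% (interneurons) of Tap2 in the neuron types. For H2-Aa no pair of neuronal neighbors passed the test (adjusted p of 0.13 to 0.96). The ratio of Tap2 to Tap1 was therefore 39.1 ± 24.9 in cerebellar granule cells, on 3 to 9 estimated counts of Tap1, against 2.12 to 4.58 in the mean of each other cell type. Over all 10 genes, 38 of the 50 pairs of neighboring cell types in the order of mean TPM differed, where 56.6% of such pairs differed over all genes tested, each in its own order. In 1 of these 38, Ciita in dentate granule cells and astrocytes, the fitted log2 difference of -0.88 ± 0.37 (adjusted p = 0.043) ran against the order of mean TPM (0.105 and 0.097). The 12 that did not pass were pairs of H2-Aa (3), H2-Ab1 (2), Nlrc5 (3), Ciita (2), B2m (1) and Tap1 (1), and 11 of these 12 lay entirely among neurons.

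The other genes of the pathway were read from 8 lists, beside 43.4% of all genes higher and 37.6% lower in microglia. Of 13 class Ib heavy chains, 12 were higher in microglia and none was lower, with a median log2 fold change of 4.01. H2-T24 (7.67 ± 0.12), H2-T23 (5.79 ± 0.09) and H2-Q4 (5.62 ± 0.09) had the largest changes, and H2-Q2, the one that did not pass, was at -0.84 ± 1.07 and varied between replicates. All 8 peptide loading genes were higher, but with a median of 1.53, led by tapasin (Tapbp, 3.88 ± 0.06), the trimming peptidase Erap1 (3.36 ± 0.07) and the tapasin relative Tapbpl (2.51 ± 0.05). Of 6 immunoproteasome genes, 5 were higher, led by the catalytic subunits Psmb8 (9.56 ± 0.12) and Psmb9 (8.05 ± 0.13) and the activator subunit Psme1 (2.61 ± 0.04), and Psme3 was lower by a fitted log2 change of -0.52 ± 0.03.

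Class II accessory genes had the highest median of the 8 lists, 6.88, and 10 of 10 were higher in microglia. Ctss, the lysosomal protease cathepsin S, reached 12.18 ± 0.06, and H2-Oa and H2-DMb1, chains of the nonclassical class II molecules that govern peptide loading, reached 11.95 ± 0.17 and 9.31 ± 0.16. Outside microglia, H2-Oa was at most 0.21 TPM and H2-DMb1 at most 1.53 TPM in any library. Genes so near 0 elsewhere could pass the filter on low counts through microglia alone, where they were then called higher. The sizes of their changes rest on libraries near 0, as do those of other listed genes such as Cd80, at most 0.28 TPM outside microglia. H2-Oa was at 58.7 TPM in microglia and 0.18 TPM in astrocytes, 0.30% of the microglial level, while H2-Eb1 was at 134% of it. Over the 10 accessory genes the median was 2.86%: Ctss (0.22%) was lowest, Ctsl, the protease cathepsin L, was at 23.5%, and the other 6 lay between 1.05% and 3.64%. These further values were chosen after they were seen.

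Of 12 transcription factors of MHC genes, 8 were higher and 4 lower in microglia, led by Irf8 (9.03 ± 0.10), Irf1 (4.71 ± 0.08) and Nfkb1 (3.90 ± 0.04), and the 4 lower genes were Rfxap, Nfyb, Nfyc and Creb1, with log2 fold changes of -0.77 to -0.14. All 11 genes of interferon receptors and signaling were higher, led by Ifngr1 (6.09 ± 0.03), Irf9 (3.78 ± 0.06) and Ifnar2 (3.37 ± 0.06). All 15 interferon-induced genes were higher in microglia than in the mean of the other 5 cell types (median 4.28), led by Bst2 (7.41 ± 0.11), Usp18 (6.81 ± 0.24) and Gbp2 (5.64 ± 0.21), and all 15 were also higher in astrocytes than in neurons (median 3.74). Against microglia alone, astrocytes were higher in Rsad2 (edgeR log2 difference 1.17 ± 0.23, adjusted p = 0.00018) and did not differ in Ifit2 and Ifit3 (adjusted p = 0.69 and 0.89). The rest of that list was lower in astrocytes (adjusted p of 0.0069 or less). Of 7 costimulation genes, 6 were tested and all 6 were higher in microglia, led by Cd86 (10.93 ± 0.09), Cd80 (6.54 ± 0.14) and Icosl (5.00 ± 0.08). In astrocytes against neurons, where 43.0% of all genes were higher and 34.1% lower, 12 of 13 class Ib genes were higher and 0 lower, and of 8 peptide loading genes 5 were higher and 0 lower. The immunoproteasome list had 5 higher and 1 lower of 6, the class II accessory list 9 and 1 of 10, and the costimulation list 4 and 1 of 6. Transcription factors had 7 higher and 5 lower of 12, and interferon receptors and signaling 8 and 2 of 11. H2-Q2, Psme3, Rfxap, Nfyb, Nfyc, Creb1, Rsad2, Ifit2 and Ifit3 were named after their values were seen.

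**Figure D4:**
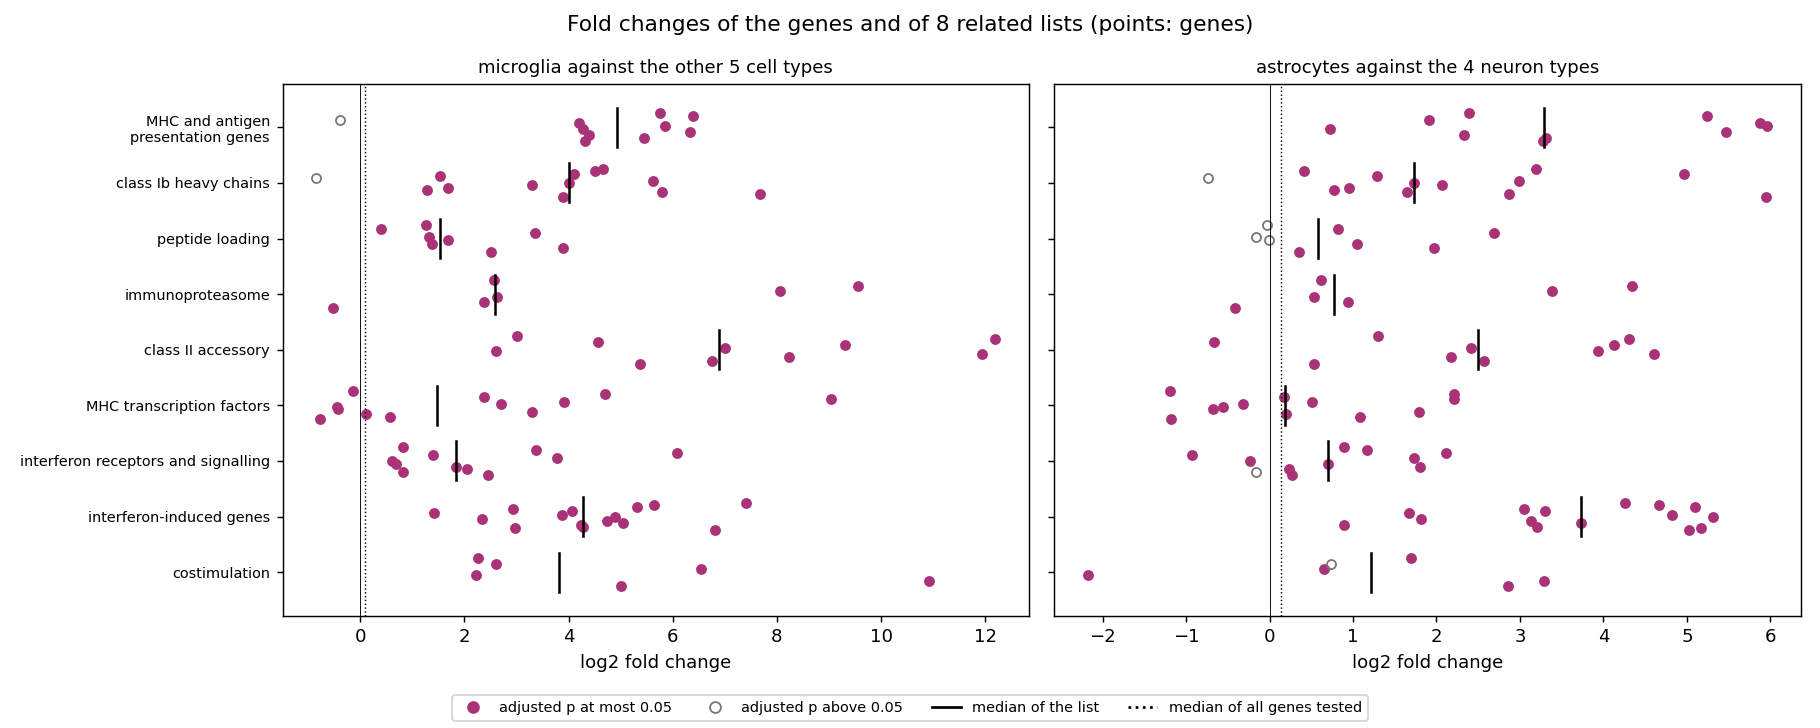
Log2 fold change of each gene (points) of the 10 MHC and antigen presentation genes and of 8 related lists, in microglia against the other 5 cell types (left) and in astrocytes against the 4 neuron types (right), filled where the adjusted p was at most 0.05. The class II accessory list has the highest median in microglia, 6.88, and the interferon-induced list the highest of the 8 in astrocytes, 3.74, while the median of all genes tested (dotted) is 0.09 and 0.14.

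The genes whose log2 CPM tracked each member most closely over the 18 libraries were described by Pearson's r, which reflects mainly the 6 cell type means. For H2-K1 these were Gbp3 (r = 0.995) and Slc2a1 (0.993), for H2-D1 Tmod3 (0.992) and Rasa4 (0.985), and for B2m Baz1a and Traf5 (both 0.989). For H2-Aa they were Lfng (0.994) and Zfp36l2 (0.992), for H2-Ab1 Atp6v0e (0.987) and Anpep (0.985), and for Cd74 Tns1 (0.992) and Rsu1 (0.986). For Tap1 they were Ceacam1 (0.987) and Iqgap3 (0.985), for Tap2 Orai1 (0.993) and Rpn2 (0.990), for Nlrc5 Thsd1 (0.974) and Asap3 (0.972), and for Ciita Nfia (0.940) and Slc26a11 (0.931).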

How the data were processed

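Per the labels and the study's methods, reads were trimmed with cutadapt 3.5 and quantified with kallisto 0.46.2 against GENCODE M24, giving estimated counts and TPM per transcript, which the authors deposited for each of 22 libraries without pooling. Per the file headers, the estimated counts were not normalized and the deposited TPM were scaled to transcript length and to a common total per library. Here both were summed per gene, and summed estimated counts were rounded. The study tested expression with sleuth, which was not used here. Instead, edgeR 4.0.16 (R 4.3.3; TMM, filterByExpr by cell type with a minimum of 10 counts, quasi-likelihood test, Benjamini-Hochberg over 20524 genes, threshold 0.05) was fitted to 18 libraries, with the batch 1 library where a replicate had both. Each SE is the log2 fold change over the square root of F. DESeq2 1.42.0, limma 3.58.1 on log2(TPM + 1), other scalings, filters and batch settings were alternatives. Counting error covers reads, not molecules, since no molecular identifiers were used. The fit was tested on simulated data of 20524 genes for the microglia comparison. It recovered 75 of 100 genes changed 2-fold and 83 of 100 changed 4-fold, and called 7 unchanged genes each time. The 10 genes and all lists were chosen with earlier results of these data known. Named genes were the 10, the 3 with the largest called change in microglia per list, the 2 most alike per member and markers, with exceptions stated. 1 gene of the microglia marker list is not reported here. Replicate numbers were not treated as pairs. The labels call batch 2 of layer V replicate 1 male and batch 1 female. The batch 2 library held 2.13 TPM of Xist and 0.03 TPM of Ddx3y and was not in the main fit.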

Additional observations from a re-analysis of the deposited data

How the results depend on the processing

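The count of 9 genes higher in microglia held in every alternative that tested all 10 genes and in each fit that left out 1 library. The count of 10 in astrocytes became 9 with a 2-fold minimum (H2-D1) and by limma on log2(TPM + 1) (Ciita) and held in the others that tested all 10, and the count that differed among neuron types ran from 7 (limma) to 10. Requiring at least 10 counts in every library left 4 of the 10 genes (H2-K1, H2-D1, B2m and Tap2), because the others were near 0 in neurons: 4 of 4 passed in microglia, in astrocytes and among neuron types, with 19 of 20 neighboring pairs, and of 12962 genes 5761 were higher in microglia and 5871 in astrocytes. Adding a 2-fold minimum gave 5808 genes higher in astrocytes in place of 8817. Leaving out 1 library gave 8234 to 9226 genes higher in microglia, 8078 to 8975 higher in astrocytes, 18038 to 18379 that differed among neuron types, 9 to 10 members that differed among neuron types and 32 to 37 neighboring pairs that differed.

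By limma, the difference of Ciita in astrocytes was 0.05 on the log2(TPM + 1) scale (adjusted p = 0.091). The excess of H2-Aa in astrocytes over microglia, whose alternatives were chosen after seeing the data, was lost under DESeq2 (adjusted p = 0.061), library totals (0.11), upper quartile scaling (0.067), protein-coding transcripts only (0.16) and 10 of the 18 fits without 1 library, with log2 differences of 0.36 to 0.65 throughout. The cause was not tested. Over scalings the median log2 change of all genes in microglia lay between 0.09 and 0.18. Same-numbered libraries deviated together only weakly (r from -0.10 to 0.11 over 45 pairs), and the numbers were not taken as pairs. The median r was 0.04 for the same number and -0.02 for different numbers, and 12 of 18 libraries had their best match in a same-numbered one. With a replicate block, 9 and 10 members passed in the first 2 comparisons, the log2 difference of H2-Aa between astrocytes and microglia was 0.49 (adjusted p = 0.048) and 37 neighboring pairs differed. Depth limited Ciita, Nlrc5 and the class II genes in neurons, where a library often held under 10 estimated counts.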
